A study of Mus musculus with 6 samples.

Results

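The nuclear genes of the mitochondrial ribosome were compared between 3 DT-treated and 3 PBS-treated samples of sorted mouse MC38 colon carcinoma cells. Members were all genes on the array whose symbol is Mrpl or Mrps followed by a number and an optional letter. They are 76 of the 19057 genes with a probe, 48 of the large subunit (Mrpl) and 28 of the small subunit (Mrps), with 132 of the 45281 probes. MC38 cells had been injected into the spleen of CD11bDTR transgenic mice, which carry the diphtheria toxin receptor under the CD11b promoter, a promoter of myeloid cells. All mice of both groups carried the transgene and the tumour. PBS or diphtheria toxin (DT) was injected into the peritoneum on days 7 and 9, and tumour cells were sorted from the livers, where they grow as metastases, on day 10. The labels give no age, sex or strain background, and do not say whether the 3 samples of a group are separate mice. The p-values therefore reflect the variation among the samples, part or all of which may be technical. Each sample is 1 Illumina bead array, and the number of arrays limits the precision.

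Mitochondria translate a small set of membrane proteins of the respiratory chain and ATP synthase on ribosomes of their own. The RNA of these ribosomes is encoded in mitochondrial DNA, while every protein is encoded in the nucleus, made in the cytosol and imported. The large subunit forms peptide bonds and the small subunit reads the messenger RNA. Many of the proteins descend from bacterial ribosomal proteins, and others have no bacterial counterpart. Symbols do not always give the subunit, since the products of Mrps18a and Mrps30 sit in the large subunit of the assembled mammalian ribosome.

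Of the 76 genes, 71 were measured, that is, were detected (p under 0.05 against the array's own negative controls) by a probe on 3 or more arrays, and 70 of these lay above background on every array. The exception, Mrpl35, was above background on 2 of the 3 PBS arrays and all DT arrays. Mrpl19, Mrpl32, Mrpl45, Mrpl57 and Mrps14 had no such probe and are left without a value. Arrays had median signals of 135 to 154, and 36.7% to 40.6% of all probes were above background, lowest in PBS replicate 2. Between 105 and 114 of the 132 mitoribosomal probes were above background on each array.

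No mitoribosomal gene passed an adjusted p of 0.05 between DT and PBS (limma, Benjamini-Hochberg over 9483 genes), where 1.09% of all genes did, 0.327% higher and 0.759% lower in DT. The smallest adjusted p among the 71 was 0.0651, for Mrpl11. At an unadjusted p under 0.05 there were 11 genes higher and 2 lower in DT, or 15.5% and 2.82% of the members, beside 12.0% and 11.9% of all genes (23.9% in both directions). By another count, 18 members (25.4%) had all 3 DT values above all 3 PBS values and 5 (7.04%) had them all below, beside 15.0% and 14.0% of all genes tested (28.9% together). Differences were small: 5 of the 71 exceeded 0.5 on the log2 scale in size (15.2% of all genes), and the 95% interval of 68 lay within 1 of 0, that is, within a 2-fold difference.

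More members were higher than lower in DT. The log2 difference, DT minus PBS, was above 0 in 50 of 71 (70.4%, against 51.3% of all genes), with a median of 0.10 beside 0.011 over all genes tested and a range from −0.44 to 0.86. The middle of the members lay between −0.047 and 0.26 (lower and upper quartiles), beside −0.22 and 0.24 for all genes. The standard error of a single member had a median of 0.16 and describes 1 gene, not the median of the list. The members were chosen with results of these data known, and no test of the list was made. With each array scaled to a common median in place of quantile normalization, the members' median was 0.30 and that of all genes 0.17.

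**Figure D1:**
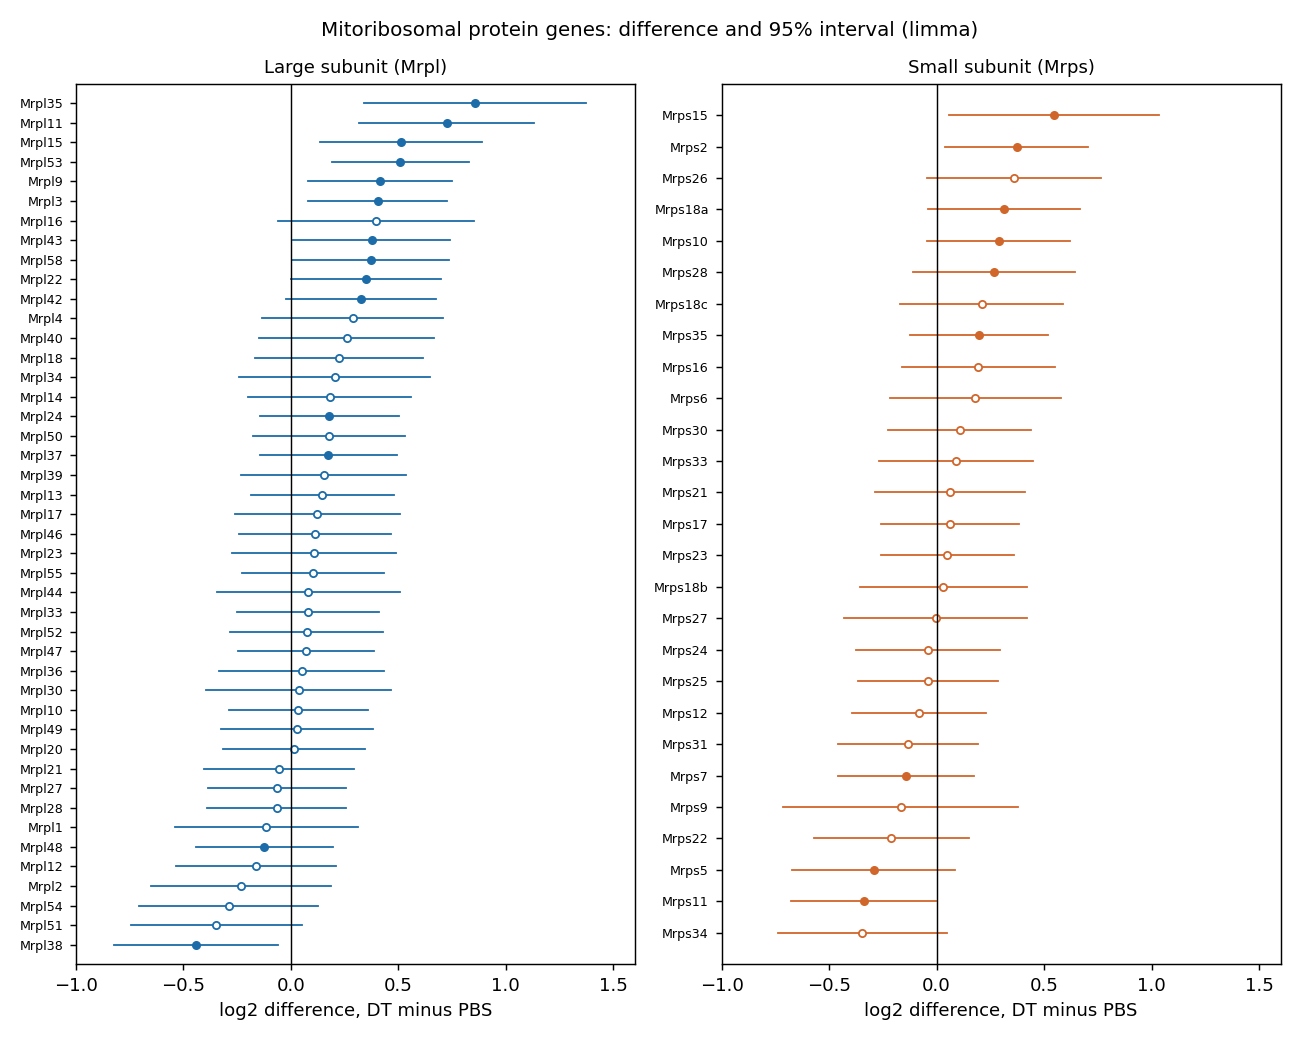
Log2 difference (DT minus PBS, horizontal axis) of each measured large-subunit gene (left, 44 genes) and small-subunit gene (right, 27 genes), with its 95% interval from limma as a line. Filled points are genes whose 3 DT values do not overlap the 3 PBS values, and open points are genes whose groups overlap; Mrpl35 is highest at 0.86 and Mrpl38 lowest at −0.44.

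The 2 subunits were then set side by side. Large-subunit genes had a median difference of 0.12, with 34 of 44 (77.3%) above 0, and small-subunit genes a median of 0.062, with 16 of 27 (59.3%) above 0. At an unadjusted p under 0.05, 9 large-subunit genes were higher (20.5%) and 1 lower (2.27%). Of the small subunit 2 were higher (7.41%) and 1 lower (3.7%), beside 12.0% and 11.9% of all genes. In 12 large-subunit genes (27.3%) all DT values lay above all PBS values and in 2 (4.55%) below. In the small subunit 6 (22.2%) lay above and 3 (11.1%) below, beside 15.0% and 14.0% of all genes. When Mrps18a and Mrps30 were counted with the large subunit, where their products sit, the medians were 0.12 over 46 genes and 0.050 over 25. Both medians stayed above 0 and kept their order under all 21 alternatives of the processing, with the large minus the small median between 0.033 and 0.11. Some of these alternatives, such as another adjusted p threshold or an intensity trend in the fit, cannot move a median. For single arrays each gene was set against its own PBS mean, so that the PBS values average 0 by construction. The mean of the large-subunit genes minus that of the small-subunit genes was then 0.0085, 0.020 and −0.029 in PBS and 0.067, 0.11 and 0.075 in DT. These values do not compare the expression levels of the subunits. The difference between the subunits was not tested.

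**Figure D2:**
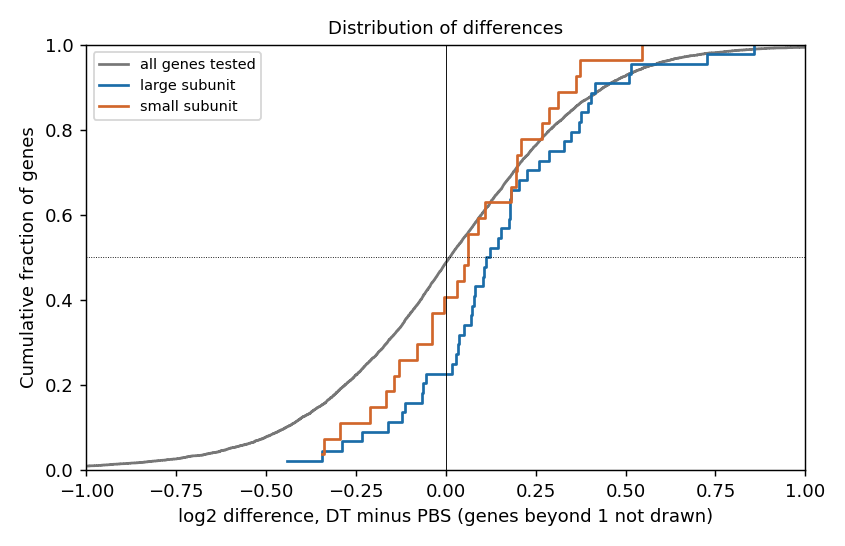
Cumulative fraction of genes (vertical axis) by log2 difference, DT minus PBS (horizontal axis), for all 9483 genes tested, the 44 large-subunit genes and the 27 small-subunit genes. The dotted line marks the medians, which are 0.011 for all genes, 0.12 for the large and 0.062 for the small subunit; both subunit curves are steeper than that of all genes.

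By array, the mean of the 44 large-subunit genes, each set against its own PBS mean, was −0.031, 0.013 and 0.018 on the PBS arrays (replicates 1, 2, 3) and 0.20, 0.15 and 0.074 on the DT arrays. All DT arrays lay above all PBS arrays. For the 27 small-subunit genes the PBS arrays had means of −0.039, −0.0070 and 0.046 and the DT arrays 0.14, 0.037 and −0.00095, so that the groups overlapped. DT replicate 1 was the highest array for 24 of the 71 members and DT replicate 3 for 3, while PBS replicates 1 and 2 were the lowest for 22 and 21. Over all genes tested, DT replicate 1 was the highest array for 17.6% and DT replicate 3 for 7.61%, and PBS replicates 1 and 2 the lowest for 16.5% and 25.6%. The mean over all genes stayed between −0.018 and 0.010 on every array.

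**Figure D3:**
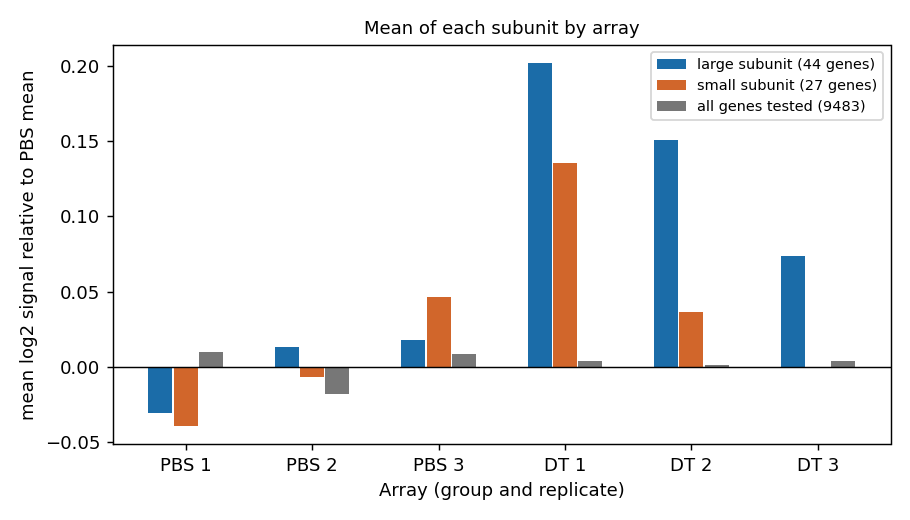
Mean log2 signal relative to the PBS mean of each gene (vertical axis) on each of the 6 arrays (horizontal axis), for the large subunit, the small subunit and all genes tested. Large-subunit bars are at 0.20, 0.15 and 0.074 in DT and within 0.031 of 0 in PBS; the small-subunit bar of DT replicate 3 is at −0.00095.

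Promoters are shown for the genes with the 3 smallest p-values (Mrpl11, Mrpl35, Mrpl53), for Mrpl9, which holds an NRF1 motif, and for Mrps11, one of the 2 genes lower in DT at an unadjusted p under 0.05, although its second probe had the opposite sign. Each runs from 250 bases before to 50 after the gene's start, 5′ to 3′, from RefSeq on GRCm38.p6. Capitals mark the ETS motif CCGGAAG (bound by GABP and other ETS factors), an NRF1 motif and a YY1 motif, each searched as 1 fixed pattern on both strands, motifs known from promoters of mitochondrial genes.
Mrpl11, chr19:4962056-4962355, plus strand: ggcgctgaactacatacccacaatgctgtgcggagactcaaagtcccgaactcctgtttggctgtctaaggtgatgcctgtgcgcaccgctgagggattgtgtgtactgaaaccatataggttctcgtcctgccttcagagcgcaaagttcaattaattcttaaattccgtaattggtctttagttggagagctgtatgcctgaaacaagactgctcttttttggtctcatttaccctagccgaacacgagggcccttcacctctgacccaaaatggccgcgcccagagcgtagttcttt
Mrpl35, chr6:71823735-71824034, minus strand: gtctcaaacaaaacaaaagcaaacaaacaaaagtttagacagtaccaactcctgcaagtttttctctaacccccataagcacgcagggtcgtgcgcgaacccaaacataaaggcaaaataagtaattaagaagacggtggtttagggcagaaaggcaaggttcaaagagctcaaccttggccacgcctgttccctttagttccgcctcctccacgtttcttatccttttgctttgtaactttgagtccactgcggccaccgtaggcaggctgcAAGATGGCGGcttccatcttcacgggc
Mrpl53, chr6:83108858-83109157, plus strand: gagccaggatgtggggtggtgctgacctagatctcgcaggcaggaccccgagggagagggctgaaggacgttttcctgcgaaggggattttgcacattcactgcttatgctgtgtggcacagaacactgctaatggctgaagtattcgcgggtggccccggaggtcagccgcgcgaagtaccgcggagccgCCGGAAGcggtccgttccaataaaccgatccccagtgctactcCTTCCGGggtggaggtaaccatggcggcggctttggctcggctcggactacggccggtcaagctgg
Mrpl9, chr3:94443086-94443385, plus strand: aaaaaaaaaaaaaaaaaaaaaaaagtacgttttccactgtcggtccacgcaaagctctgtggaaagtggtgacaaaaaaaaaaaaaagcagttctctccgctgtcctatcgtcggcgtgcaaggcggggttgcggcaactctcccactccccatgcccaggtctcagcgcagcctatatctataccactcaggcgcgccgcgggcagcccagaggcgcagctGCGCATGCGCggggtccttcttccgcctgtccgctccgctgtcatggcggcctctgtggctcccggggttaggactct
Mrps11, chr7:78782881-78783180, plus strand: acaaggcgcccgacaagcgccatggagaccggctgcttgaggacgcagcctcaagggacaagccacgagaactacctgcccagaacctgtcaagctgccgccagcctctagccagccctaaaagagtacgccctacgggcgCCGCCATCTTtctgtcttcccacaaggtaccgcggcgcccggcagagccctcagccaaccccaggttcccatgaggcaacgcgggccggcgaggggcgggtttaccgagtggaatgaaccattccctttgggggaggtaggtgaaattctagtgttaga
Mrpl53 holds 2 ETS motifs, Mrpl35 and Mrps11 a YY1 motif each and Mrpl9 an NRF1 motif, while the Mrpl11 window holds none of the 3. The table had a promoter for 67 of the 76 members, 73 windows in all. An ETS motif stood in 35.6% of them, an NRF1 motif in 17.8% and a YY1 motif in 6.85%, against 18.2%, 10.2% and 2.06% of the 9831 promoters of all genes tested and 8.86%, 4.6% and 0.852% of all 32851 promoters. At least 1 of the 3 motifs was in 25 of 47 large-subunit and 13 of 26 small-subunit windows. It was in 54.3% of the windows of members with a positive difference and 43.5% of those with a negative one. These are shares of windows, not of genes, since 3 members had several windows, each counted on its own. Of these members Mrpl2 and Mrpl48 had negative differences, so the shares do not compare the genes. The TATA box TATAAA was in 6.85% of member windows and 7.64% of those of all genes tested. Mrps11 and Mrpl46 lie on opposite strands of chromosome 7 with their starts 42 bases apart, so that their windows overlap. A motif match is a description of the sequence only.

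Mrpl11, the counterpart of bacterial L11 at the base of the stalk that receives translation factors, had the smallest p of the members. Its normalized log2 signals read 7.97, 8.32 and 8.12 on the PBS arrays and 9.08, 8.97 and 8.54 on the DT arrays, without overlap of the groups. The difference was 0.73 (SE 0.18), a 1.65-fold level (limma, adjusted p = 0.0651). Its call depended on the processing: Mrpl11 passed in 8 of the alternatives, among them an adjusted p under 0.1 as the threshold, the deposited normalized values (0.77, adjusted p = 0.0414 in limma), and without DT replicate 3 (0.89, adjusted p = 0.0316 in limma), and its adjusted p ranged from 0.0208 to 0.685 over them. Mrpl12, the stalk protein that contacts the same factors and in human cells binds the mitochondrial RNA polymerase, read 10.74, 10.92 and 10.88 on the PBS arrays and 10.87, 10.40 and 10.79 on the DT arrays. Its groups overlapped, with a difference of −0.16 (SE 0.17). The 2 stalk genes thus gave opposite signs, the second within its error.

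Mrpl35, the counterpart of bacterial L35, had the largest difference of the 71, at 0.86 (SE 0.23; limma, adjusted p = 0.0775). The log2 signal was 5.47, 4.58 and 5.46 on the PBS arrays and 5.99, 6.10 and 5.99 on the DT arrays. PBS replicate 2, on which Mrpl35 was not above background, stood lowest, and without that array the difference was 0.58. It also depended on how the background of this dim gene was treated, falling to 0.49 when the normexp offset was raised to 50 and to 0.26 when no background was removed. Mrpl53, a protein with no bacterial counterpart, was tighter, at 9.41, 9.30 and 9.49 on the PBS arrays and 9.85, 9.98 and 9.90 on the DT arrays. The DT arrays of Mrpl53 lay closer together than the distance to any PBS array, and the difference was 0.51 (SE 0.14; limma, adjusted p = 0.0834).

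Classes were set by symbol, and Mrpl1 to Mrpl36, Mrpl47 and Mrpl55 were counted as having a bacterial counterpart. The place of Mrpl55 (0.10) in this class was not checked. Of the 28 measured large-subunit genes so counted, 22 had a positive and 6 a negative difference, none past the threshold. Mrpl15 (log2 signals of 9.03, 8.90 and 9.35 on the PBS arrays and 9.69, 9.70 and 9.43 on the DT arrays) had a difference of 0.51 (SE 0.17, adjusted p = 0.117 in limma). The Mrpl15 probe used is annotated to a cDNA clone. All measured Mrpl15 probes of such clones were higher in DT, while the probe annotated to its RefSeq transcript gave −0.12 (SE 0.17). Mrpl3, which reaches towards the site of peptide bond formation, read 8.68, 8.67 and 8.75 on the PBS arrays and 9.24, 9.08 and 8.99 on the DT arrays, a difference of 0.40 (SE 0.15). Mrpl9, whose promoter is printed above, read 9.12, 9.10 and 9.04 on the PBS arrays and 9.56, 9.63 and 9.31 on the DT arrays, a difference of 0.41 (SE 0.15). A second measured probe of Mrpl9 gave 0.089 (SE 0.18) with overlap of the groups. At the probes used, the groups of Mrpl15, Mrpl3 and Mrpl9 did not overlap, and DT replicate 3 was the lowest DT array in each. Mrpl22, part of the wall of the exit tunnel for the new peptide, had a difference of 0.35 (SE 0.16). Mrpl16, close to the tRNA sites, gave 0.40 (SE 0.20), or 0.21 without PBS replicate 2, and its groups overlapped.

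Among large-subunit genes without a bacterial counterpart, Mrpl43 read 9.91, 10.39 and 10.15 on the PBS arrays and 10.63, 10.48 and 10.48 on the DT arrays, a difference of 0.38 (SE 0.17). Mrpl58, once named Ict1, is a peptidyl-tRNA hydrolase that became part of the large subunit and is known in human cells to release stalled ribosomes. It read 7.68, 7.82 and 7.75 on the PBS arrays and 8.39, 8.05 and 7.93 on the DT arrays, a difference of 0.37 (SE 0.16). Adjusted p-values of Mrpl3, Mrpl9, Mrpl22, Mrpl43 and Mrpl58 were 0.138, 0.139, 0.207, 0.202 and 0.203 in limma. By class as set by symbol, large-subunit genes counted with a bacterial counterpart had a median of 0.12 over 28 genes and the others 0.13 over 16. In the small subunit these medians were 0.062 over 17 genes and 0.023 over 10.

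Mrpl38, a protein of the central protuberance with no bacterial counterpart, was the lowest member. Its log2 signals read 11.43, 11.21 and 11.61 on the PBS arrays and 10.94, 10.80 and 11.19 on the DT arrays, and every DT value lay below every PBS value. The difference was −0.44 (SE 0.17), or 0.736 of the PBS level (limma, adjusted p = 0.158). Mrpl51, Mrpl54 and Mrpl2 followed at −0.35 (SE 0.18), −0.29 (SE 0.19) and −0.23 (SE 0.19), each with overlap of the groups. PBS replicate 2 weighed on both of the latter, with −0.12 for Mrpl54 and −0.40 for Mrpl2 when it was left out. Mrpl2 is the counterpart of bacterial L2, a core protein next to the site of peptide bond formation. Mrpl13, Mrpl21 and Mrpl33 gave 0.15 (SE 0.15), −0.055 (SE 0.16) and 0.079 (SE 0.15).

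In the small subunit, Mrps15, which binds the small ribosomal RNA, had the largest difference. Its log2 signals read 8.99, 9.93 and 9.52 on the PBS arrays and 9.98, 10.10 and 9.99 on the DT arrays, with PBS replicate 2 just below the DT arrays. The difference was 0.55 (SE 0.22; limma, adjusted p = 0.171), and moved to 0.31 without PBS replicate 1 and 0.77 without PBS replicate 2. Mrps2, the counterpart of bacterial S2, read 6.87, 7.07 and 7.03 on the PBS arrays and 7.31, 7.51 and 7.25 on the DT arrays, a difference of 0.37 (SE 0.15; limma, adjusted p = 0.172). Mrps26 gave 0.36 (SE 0.18) with overlap, or 0.19 without PBS replicate 2, and Mrps10, of the subunit's head, 0.29 (SE 0.15) without.

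The lower end of the small subunit held Mrps34, Mrps11 and Mrps5. Mrps11, of the platform of the subunit, read 8.85, 8.54 and 8.56 on the PBS arrays and 8.34, 8.29 and 8.30 on the DT arrays. The DT arrays lay within a narrow range below all PBS arrays, and the difference was −0.34 (SE 0.15; limma, adjusted p = 0.206). The second measured probe of Mrps11 gave 0.21, so that the direction turned with the probe. Mrpl46, which starts 42 bases away from Mrps11 on the other strand, gave 0.11 (SE 0.16). Mrps34, known in human and mouse for keeping the small ribosomal RNA stable, read 10.37, 10.40 and 10.41 on the PBS arrays and 10.38, 9.78 and 9.99 on the DT arrays. DT replicate 1 lay among the PBS arrays and the other two below them, for a difference of −0.35 (SE 0.18), or −0.21 without DT replicate 2. Mrps5, which lies where messenger RNA enters, gave −0.29 (SE 0.17), or −0.14 without DT replicate 2, Mrps22 −0.21 (SE 0.16) and Mrps9 −0.17 (SE 0.25).

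The Mrps18 family holds 3 genes whose products take different places. Mrps18a, placed in the large subunit, gave a difference of 0.31 (SE 0.16) without overlap of the groups. Mrps18b and Mrps18c, placed in the small subunit, gave 0.032 (SE 0.17) and 0.21 (SE 0.17), the second 0.062 without PBS replicate 1. Mrps30, the other Mrps product of the large subunit, gave 0.11 (SE 0.15). Mrps12, the counterpart of bacterial S12 at the decoding centre, read 11.03, 11.02 and 11.07 on the PBS arrays and 10.97, 10.88 and 11.03 on the DT arrays, a difference of −0.081 whose 95% interval ran from −0.39 to 0.23. Mrps24, at the entrance for messenger RNA, gave −0.039 (SE 0.15), Mrps17 0.062 (SE 0.14), Mrps33 0.090 (SE 0.16) and Mrps27, which contains pentatricopeptide repeats, −0.0038 (SE 0.19).

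**Figure D4:**
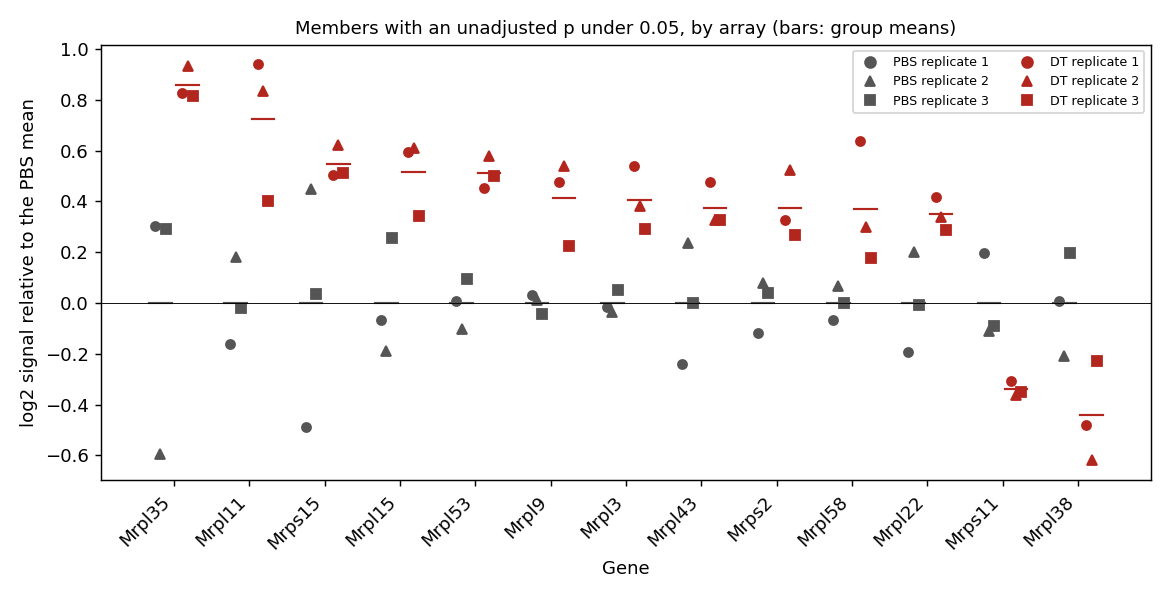
Normalized log2 signal on each array relative to the gene's PBS mean (vertical axis) for the 13 members with an unadjusted p under 0.05 (horizontal axis), PBS in grey and DT in red, with the replicate given by the symbol and the group mean by a bar. No gene overlaps between groups, PBS replicate 2 stands far below the other PBS arrays in Mrpl35, and Mrps11 and Mrpl38 are the 2 genes with DT below PBS.

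Different probes of the same gene did not always go the same way. Of 27 members with several measured probes, 14 had every probe above 0, 2 had every probe below 0 and 11 had probes of both signs. Over all 110 measured probes 82 were above 0. Mrpl15 showed the widest spread, from −0.12 (SE 0.17) for a probe annotated to its RefSeq transcript to 1.16 (SE 0.27) for 1 of 4 probes annotated to cDNA clones, with the 3 others between 0.51 and 0.77. The highest of these had raw signals of 183, 136 and 187 on the PBS arrays and 189, 279 and 198 on the DT arrays, and was above background on 5 of 6 arrays. Mrpl49 had 4 probes from 0.029 to 0.89, the last one at raw signals of 152, 139 and 154 on the PBS arrays and 168, 184 and 167 on the DT arrays.

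With each probe tested on its own over all 14903 measured probes, 2 mitoribosomal probes passed, beside 216 probes in all (1.45%). The second probe of Mrpl38, annotated to a cDNA clone, had raw signals of 566, 318 and 566 on the PBS arrays and 267, 352 and 351 on the DT arrays, with normalized values that gave −0.92 (SE 0.17; limma, adjusted p = 0.0423). The 2 probes of Mrpl38 thus had the same sign, at −0.44 and −0.92. The dim Mrpl49 probe (0.89, SE 0.18, adjusted p = 0.0468 in limma) was above background on the 3 DT arrays only. This dim probe thus met the filter only through the group in which it is high, and its PBS values lie at background. The probe used for Mrpl49 gave 0.029 (SE 0.17). Mrpl3 had both probes higher, at 0.40 and 0.78. Mrps11, Mrpl51 and Mrps10 had probes on both sides of 0, from −0.34 to 0.21, from −0.35 to 0.35 and from −0.27 to 0.48. Probes of both signs were also seen in Mrpl1, Mrpl33, Mrpl48, Mrps7, Mrps12, Mrps25 and Mrps31, within −0.22 to 0.24 apart from a Mrps25 probe at 0.58.

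**Figure D5:**
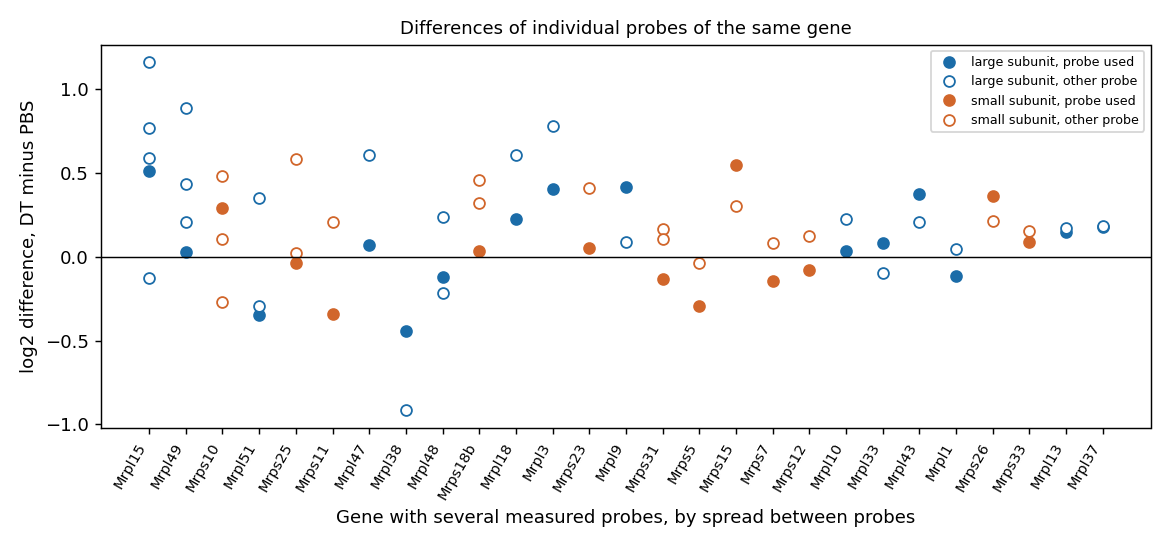
Log2 difference, DT minus PBS (vertical axis), of each measured probe of the 27 members with several such probes, ordered by the spread between probes. Filled points are the probes used for the gene, those with the highest mean signal, and open points the others; Mrpl15 spreads from −0.12 to 1.16, and both Mrpl38 probes are below 0.

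Mitoribosomal proteins that carry other names did not share the direction of most members. All 4 that were measured gave negative differences, with a median of −0.21 and 0 genes past the threshold in limma. Dap3, a GTP-binding protein of the small subunit, gave −0.33 (SE 0.14; unadjusted p = 0.0435, adjusted p = 0.196 in limma) and every DT value lay below every PBS value. Gadd45gip1, in the large subunit, gave −0.31 (SE 0.18), and Ptcd3 and Chchd1, both of the small subunit, −0.12 (SE 0.16) and −0.0038 (SE 0.14). The list was chosen by name and is short, and its difference from the members was not tested.

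Genes that build, supply or control the mitochondrial ribosome had lower medians than the Mrpl and Mrps genes. With the 4 genes above, 68 were measured, and none passed the threshold over all genes (limma), with 6 higher (8.82%) and 8 lower (11.8%) at an unadjusted p under 0.05, beside 12.0% and 11.9% of all genes. Assembly and RNA modification factors had a median of −0.018 over 18 genes. The methyltransferase Mrm3 gave −0.46 (SE 0.17) and the helicase Dhx30 −0.45 (SE 0.16). Translation factors had a median of −0.080 over 14 genes, with −0.74 (SE 0.18; limma, adjusted p = 0.0601) for the initiation factor Mtif2 and −0.52 (SE 0.17) for Guf1, a GTPase that acts on the elongating ribosome. Mitochondrial tRNA synthetases and the amidotransferase had a median of −0.17 over 16 genes, with 0.38 (SE 0.14) for Rars2 and −0.38 (SE 0.15) for Wars2.

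Genes of mitochondrial transcription and biogenesis had a median of −0.14 over 16 genes. Tefm, the transcription elongation factor of mitochondria, gave 6.46 ± 0.15 in PBS and 7.25 ± 0.35 in DT (SD, n = 3), a difference of 0.79 (limma, adjusted p = 0.0621). Tfam, which packages mitochondrial DNA and starts its transcription, gave 7.39 ± 0.17 and 7.97 ± 0.26 (SD, n = 3), a difference of 0.57 (limma, adjusted p = 0.106). Of the factors whose motifs were sought in the promoters, Yy1 had a probe but was not measured. Nrf1 gave −0.22 (SE 0.18), and of the subunits of GABP, Gabpa gave −0.37 (SE 0.19) and Gabpb1 −0.085 (SE 0.16). Together the 68 genes had 27 positive and 41 negative differences and a median of −0.088.

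Markers of other cell types were read on the same arrays. Of 14 macrophage and monocyte markers with a probe 10 were measured, with a median difference of −0.92. At an unadjusted p under 0.05 in limma, 8 were lower (80%) and 0 higher in DT, beside 11.9% and 12.0% of all genes. The mean of the 10 markers relative to PBS ran from −0.76 to 0.38 in PBS, with replicate 3 lowest. In DT it ran from −0.97 to −0.70. Itgam, Ptprc, Marco and Clec4f were not above the filter. Of 11 neutrophil markers 7 were measured, with 3 past the threshold, all higher in DT (limma), beside 0.327% of all genes higher. Differences of the 7 ran from −0.50 to 2.18, and their means from −0.25 to 0.30 in PBS and from 0.76 to 1.54 in DT. Lcn2 and Retnlg, past the threshold, and Ltf, not past it, were above background on 0 PBS and 3 DT arrays. These genes were measured only through the DT arrays, and their PBS values lie at background. S100a8, the other gene past the threshold, was above background on 3 PBS and 3 DT arrays. Mpo, Camp, Ngp and Cxcr2 were not above the filter. Of 9 epithelial and carcinoma markers only Krt8, Cdh1 and Cldn7 were measured, with a median of 0.17, and Epcam, Krt18, Krt19, Krt20, Vil1 and Cdx2 were not, so that few markers here bear on the carcinoma origin of the cells. Hepatocyte markers (3 of 12 measured, median 0.35) ran from −0.60 for Arg1 to 0.68 for Apoa2. Ttr, at their median, was above background on 1 PBS and 2 DT arrays. Endothelial markers (2 of 8, median −0.26) had opposite signs, with −0.55 for Flt1 and 0.035 for Clec4g. Stellate cell and fibroblast markers (7 of 10, median 0.16) ran from −0.15 to 0.56. T and NK cell markers (3 of 8, median −0.67) complete the lists. Of the last, Prf1, the pore-forming protein of cytotoxic lymphocytes, passed the threshold and was lower in DT (−1.11, adjusted p = 0.0459 in limma). Its mean log2 signal was 12.90 in PBS and 11.79 in DT. Nkg7 gave −0.67 (SE 0.23) and Cd3e, near background, −0.086 (SE 0.23). Cd3d, Cd4, Cd8a, Gzmb and Ncr1 were not above the filter, so that few markers here bear on lymphocytes. The part of these cells in the mitoribosomal values was not tested, and in such bulk samples fewer cells of a type and less RNA per cell cannot be told apart.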

How the data were processed

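Gene expression was measured on Illumina mouse bead arrays in 3 PBS and 3 DT samples. Per the labels' protocols, sorted cells were extracted with Trizol and RNA was amplified with an oligo-dT based kit and labelled with biotin. For each probe and array the authors deposited, per the file headers, a bead signal (a linear intensity that the values show to be unnormalized) and a detection p-value. The authors also deposited normalized log2 values, whose method is not stated; they served as an alternative only.

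Gene names came from the platform annotation, updated through Entrez identifiers for 34807 of 34885 probes with 1 gene; 18 probes with several genes were left out. The neqc function of limma 3.58.1 (R 4.3.3) processed the intensities (normexp background from detection p-values, offset 16, quantile normalization, log2), which shrinks differences of dim genes and removes a shift shared by all genes. A probe was measured where its detection p was under 0.05 on 3 or more arrays, and the brightest such probe stood for its gene. Groups were compared by lmFit and eBayes, two-sided, with Benjamini-Hochberg adjustment over 9483 genes at 0.05, after a check of the procedure on simulated data. The smallest p that an exact permutation test allows at this size is 0.1. Subunit and list values are medians and counts without a test.

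Members and lists were chosen with earlier results of these data known. Named are members with an unadjusted p under 0.05, the 5 highest and 5 lowest of each subunit, and the 3 brightest and 3 dimmest. Also named are those with probes of opposite sign, some with a known place or role, and of each list the 2 genes with the smallest p. Gadd45gip1, Ptcd3, Chchd1, Nrf1, Gabpa, Gabpb1, Cd3e, Mrpl46 and Mrpl49 were added after their values were seen. Promoters came from RefSeq tables; drawing used matplotlib 3.10.9. Same-numbered PBS and DT arrays did not deviate together, with correlations of −0.10, −0.18 and 0.030, and were treated as unpaired.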

Additional observations from a re-analysis of the deposited data

How the results depend on the processing

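The members' median stayed above that of all genes in all 21 alternatives (by 0.068 to 0.14) and the large-subunit median above the small one in all 21. An adjusted p under 0.1, a replicate block and an intensity trend leave every median as it is, so these add no support. Gene symbols as annotated also gave every median unchanged. Counting Mrps18a and Mrps30 with the large subunit moved only the small-subunit median, and a detection p under 0.01 only that of all genes. The count of members past the threshold was 0 in the main analysis. It was 2 with a normexp offset of 50 (2.82% of members, beside 6.9% of all genes) and 2 without background correction (2.82%, beside 5.88%). It was 1 with the deposited normalized values (1.41%, beside 3.3%) and 1 with detection on all 6 arrays (1.43%, beside 4.64%). An intensity trend gave 2 (2.82%, beside 8.14%) and array weights 4 (5.63%, beside 11.2%). With every probe tested 2 passed (1.82%, beside 1.45% of all probes), and 3 (4.23%, beside 755 or 7.96% of all genes) at an adjusted p under 0.1. Those genes were Mrpl11, Mrpl53, Mrpl35, Mrpl38 and, among probes, Mrpl49. Leaving out each array in turn gave 0 to 1 members, the 1 being Mrpl11 without DT replicate 3 (1.41%, beside 4.59% of all genes). The count of all genes, 103, was 654, 558, 27, 313, 264, 382, 0, 772, 1059 and 216 with an offset of 50, no background correction, median scaling, deposited values, detection p under 0.01, detection on all 6 arrays, no filter (2942 genes at an unadjusted p under 0.05 in limma), an intensity trend, array weights and every probe, and 0 to 424 with an array left out: 61 and 63 without PBS replicates 1 and 3, 3 without either PBS replicate 2 or DT replicate 1, 0 when DT replicate 2 was left out and 424 when DT replicate 3 was. A replicate block in the fit left 30 genes, with 0 members among them, but the numbers do not pair these samples.

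The medians moved with the scaling, to 0.30 (all members), 0.33 (large) and 0.28 (small) with median scaling and 0.16, 0.18 and 0.13 with the deposited values, where the cause was not tested. With every probe tested the large median was 0.17, and with the mean of a gene's probes the small median was 0.12. Leaving out arrays gave 0.084 to 0.15 for all members, 0.089 to 0.16 for the large and 0.031 to 0.094 for the small subunit, and 0.033 to 0.11 for their difference, highest without PBS replicate 2.

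Of 696 values of the 41 named members under alternatives, 650 kept sign and side of the threshold, 13 passed it at 0.05 and 33, in 13 genes, changed sign. All 13 had a difference under 0.17 in size. Under median scaling these were Mrpl1 (0.078), Mrpl12 (0.055), Mrpl21 (0.15), Mrpl48 (0.11), Mrps7 (0.054), Mrps9 (0.028), Mrps12 (0.12), Mrps24 (0.22), Mrps25 (0.13), Mrps27 (0.083) and Mrps31 (0.074). With the mean of a gene's probes they were Mrpl33 (−0.0086), Mrps12 (0.021), Mrps25 (0.19) and Mrps31 (0.048). Mrps24 gave 0.069 with the deposited values, and Mrps27 gave 0.00063 with an offset of 50, 0.0022 without background correction and 0.094 with array weights. With an array left out the ranges were −0.30 to 0.049 for Mrpl1, −0.17 to 0.024 for Mrpl21, −0.19 to 0.11 for Mrpl33, −0.093 to 0.14 for Mrps18b, −0.49 to 0.019 for Mrps9, −0.13 to 0.036 for Mrps24, −0.10 to 0.013 for Mrps25 and −0.18 to 0.14 for Mrps27.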
